A study of Gossypium hirsutum with 24 samples.

Results

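A set of 36 probe sets, of 23977 on the array (0.15%), was lower in control cotton bolls at 2 dpa (days post anthesis) than at both 0 and 5 dpa. Members were taken by group means: the mean of the 3 control arrays had to be at least 1.585 log2 units (3-fold) higher at 0 dpa than at 2 dpa, and at least as much higher at 5 dpa than at 2 dpa. Of all probe sets, 175 met the first condition and 258 the second, and the 36 made up 20.6% and 14% of these. The expression of these 36 in the control arrays at 0, 2 and 5 dpa is therefore a description of the choice, and no test was made on it. The opposite shape, a rise at 2 dpa of the same size on both sides, was found in 308 probe sets.

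Transcripts of bollworm-infested (BS) and noninfested control (CN) bolls were read on 24 Affymetrix Cotton GeneChip arrays. There were 3 arrays for each of 8 groups, all from field-grown Gossypium hirsutum cv. Bikaneri narma. Helicoverpa armigera larvae (of the second instar by the labels, of the second or the third by the study's methods) were put on at flower opening, and BS samples were taken after 8 h (0 dpa), 2 days (2 dpa) and 5 days (5 dpa) with the larva. For BS at 10 dpa the larva was removed after 5 days and the bolls were left to grow on. The study's methods give 10 days of growth after removal for the bolls labelled 10 dpa. The age of these BS bolls against CN bolls of 10 dpa is therefore unclear. CN bolls of 0, 2, 5 and 10 dpa carried no larva and came from a separate plot, so plot and infestation changed together and cannot be told apart. Whole bolls were taken at the 2 early stages and, of infested bolls, just the attacked part at the 2 late stages, with controls for each. Each replicate was a pool of bolls, so the spread given here is that between pools. For no group do the sources used here give the hour of collection. Values are log2 expression, centred for each probe set on its median over the 24 arrays, so a value of 0 is that median and levels cannot be compared between genes. In bulk tissue, fewer cells of a type and less RNA per cell cannot be told apart.

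A young boll holds ovules whose epidermal cells elongate into fibres, a process that needs new cell wall, membrane and cytoskeleton. Thiamine (vitamin B1) is made in plant plastids from a thiazole part and a pyrimidine part, for which THI1 and THIC are the named synthesis genes. In Arabidopsis, transcripts of thiamine synthesis and the transcript of CCL are known to cycle over the day.

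Over the 36 members, the median of the group means was -0.49 in BS and 1.28 in CN at 0 dpa, -1.09 in BS and -1.06 in CN at 2 dpa, 0.26 in BS and 1.78 in CN at 5 dpa, and -0.99 in BS and 2.41 in CN at 10 dpa. The medians over all probe sets lay between -0.05 and 0.05 in the 8 groups. Over all 23977 probe sets, CN at 2 dpa differed least from CN at 0 dpa (mean absolute difference 0.354) and CN at 5 dpa (0.365), and by 0.406 from BS at 0 dpa. Over the 36 members the differences of CN at 2 dpa were 1.03 from BS at 0 dpa and 1.28 from BS at 2 dpa, against 2.61 from CN at 0 dpa and 3.25 from CN at 5 dpa. All of these use CN values that chose the members, and nothing is read from them.

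**Figure D1:**
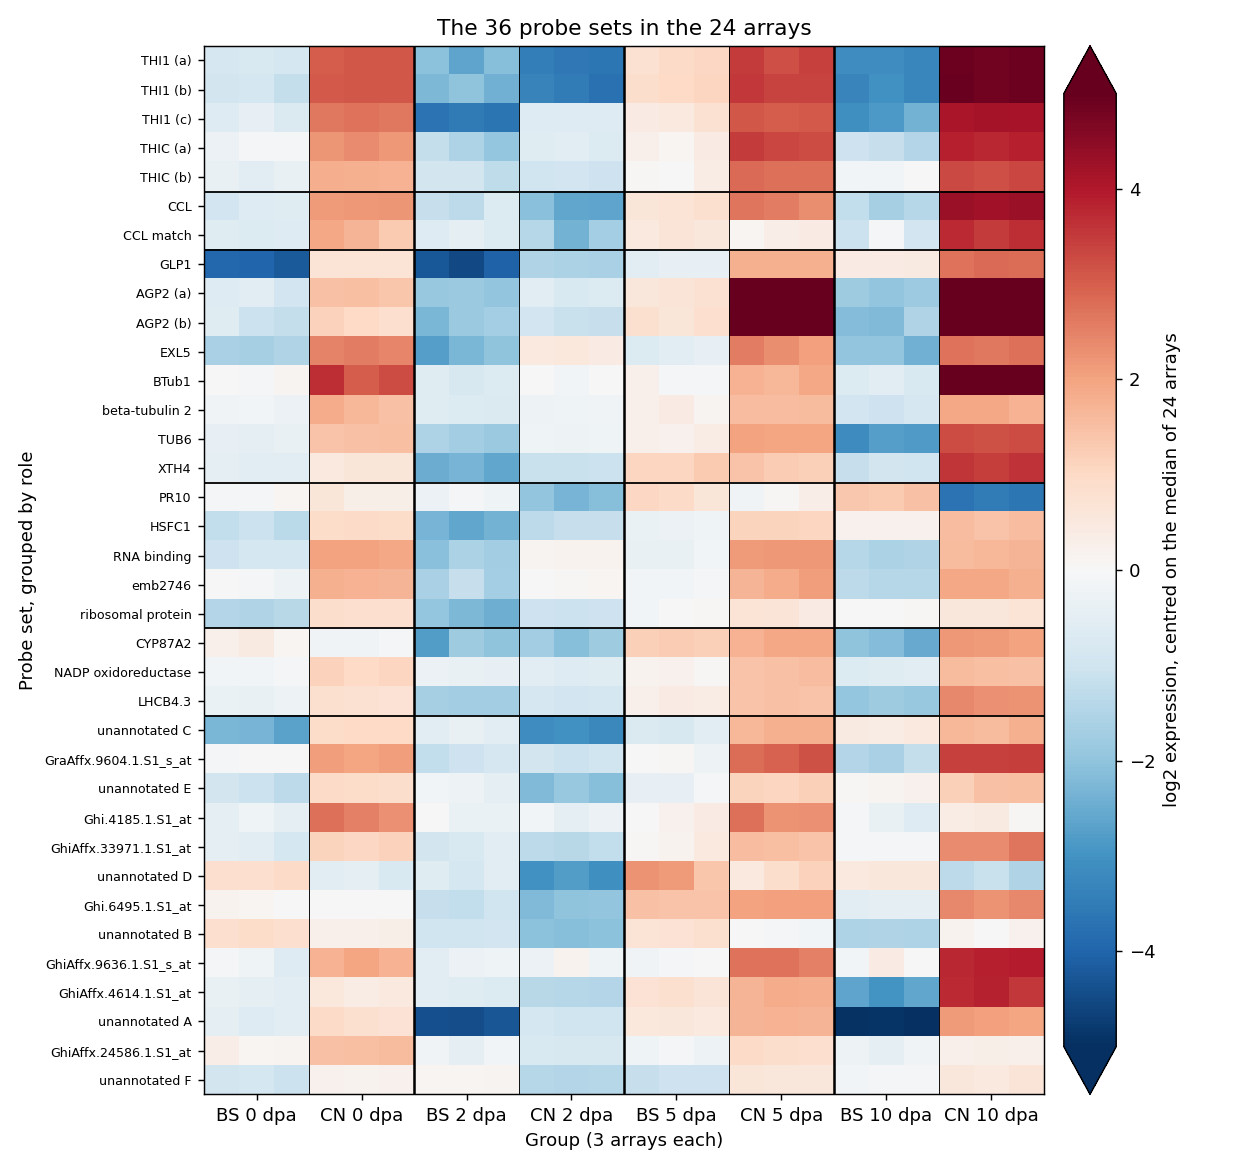
Log2 expression of the 36 probe sets (rows, grouped by role and ordered by depth of the dip) in the 24 arrays (columns, 3 for each group, BS left of CN at each stage). The 3 CN arrays at 0, 5 and 10 dpa are mostly red and those at 2 dpa mostly blue, while BS arrays are pale or blue at 0, 2 and 10 dpa. Colours stop at -5 and 5.

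The depth of the dip, taken as the smaller of the 2 differences, had a median of 2.05 and went up to 6.63. It was over 3 log2 units in 6 members and over 2 in 20. In all 36 members the 3 CN arrays at 2 dpa lay below every CN array at 0 and 5 dpa. With close replicates this follows from the choice by 3-fold differences, and nothing is read from it. Values at 5 dpa were above those at 0 dpa in 27 members and below them in 9. Within-group SDs of the members had medians between 0.056 and 0.167 in the 8 groups, against 0.0743 to 0.111 over all probe sets.

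The deepest dips (6.63 and 6.62) were those of 2 probe sets of thiamine synthesis. The other members of this role had dips of 3.30, 2.85 and 2.79, shallower than that of CCL (4.60). Of 6 probe sets described as THI1 or THIC, 5 were members, a grouping made after their values were seen. They were 3 THI1 probe sets, here a, b and c in order of depth, and 2 THIC probe sets, a and b. THI1 is named for the thiazole requirement of its Arabidopsis mutant and THIC for the enzyme that makes the pyrimidine. Several probe sets may read copies of 1 gene: THI1 a and b differed by at most 0.16 in any group mean, and both THIC probe sets belonged to 1 UniGene cluster. THI1 a and c also belonged to 1 UniGene cluster, but their CN means at 2 dpa were -3.56 and -0.63. BS minus CN at 2 dpa was 1.29 for THI1 a and -2.99 for THI1 c, so these probe sets differed in depth and direction.

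The study designed quantitative PCR primers for the transcript read by THI1 c, and these are shown because they identify the only member with an assay of its own.
THI1 forward: acgctatcgatcatcccaatac
THI1 reverse: caatcttgcatggacccaaac

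For THI1 b, the BS arrays read -0.92, -0.86 and -1.19 at 0 dpa, -2.23, -2.00 and -2.41 at 2 dpa, 0.86, 0.99 and 1.08 at 5 dpa, and -3.29, -3.04 and -3.25 at 10 dpa. The CN arrays read 3.08, 3.11 and 3.09 at 0 dpa, -3.33, -3.50 and -3.74 at 2 dpa, 3.52, 3.36 and 3.39 at 5 dpa, and 4.96, 4.83 and 4.92 at 10 dpa. The dip in CN bolls was 6.62 log2 units deep (98.4-fold), and the CN arrays at 2 dpa were the lowest of all 24. In BS bolls the same transcript had lower values at 2 dpa than at 0 dpa as well, by 1.22 ± 0.11 (SE), which is under 3-fold.

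THI1 c had its lowest values in BS bolls. It read -0.64, -0.41 and -0.73 in BS and 2.65, 2.72 and 2.64 in CN at 0 dpa, and -3.69, -3.53 and -3.65 in BS and -0.63 in each of the 3 CN arrays at 2 dpa. At 5 dpa it read 0.41, 0.50 and 0.77 in BS and 3.12, 3.02 and 3.05 in CN, and at 10 dpa -3.06, -2.87 and -2.35 in BS and 4.10, 4.15 and 4.13 in CN. At each stage the BS arrays lay below the CN arrays, whereas for THI1 b the order was the other way at 2 dpa. The largest difference between THI1 b and c in a group mean was 2.89, in CN at 2 dpa.

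THIC a dipped by 2.85 in CN bolls. Its BS arrays read -0.28, -0.10 and -0.08 at 0 dpa, -1.18, -1.53 and -1.92 at 2 dpa, 0.26, 0.08 and 0.40 at 5 dpa, and -1.03, -1.17 and -1.47 at 10 dpa. Its CN arrays read 2.22, 2.35 and 2.18 at 0 dpa, -0.60, -0.53 and -0.68 at 2 dpa, 3.51, 3.33 and 3.27 at 5 dpa, and 3.87, 3.75 and 3.88 at 10 dpa. For this THIC probe set, as for THI1 b and c, the highest CN values were those of 10 dpa. The sixth described probe set, also THI1, differed by only 0.72 and 0.96 between CN at 0 and 5 dpa and CN at 2 dpa, and was no member.

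CCL, a gene of unknown function whose short-lived mRNA is under clock control in Arabidopsis, was the deepest dip outside thiamine synthesis (4.60). It read -0.96, -0.64 and -0.61 in BS and 2.11, 2.16 and 2.20 in CN at 0 dpa, -1.16, -1.32 and -0.67 in BS and -2.10, -2.58 and -2.64 in CN at 2 dpa, 0.61, 0.67 and 0.82 in BS and 2.68, 2.56 and 2.32 in CN at 5 dpa, and -1.24, -1.67 and -1.43 in BS and 4.31, 4.21 and 4.33 in CN at 10 dpa. A second probe set matched to the same Arabidopsis protein was also a member, with a dip of 2.10. Its group means differed from those of CCL by up to 2.24.

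**Figure D2:**
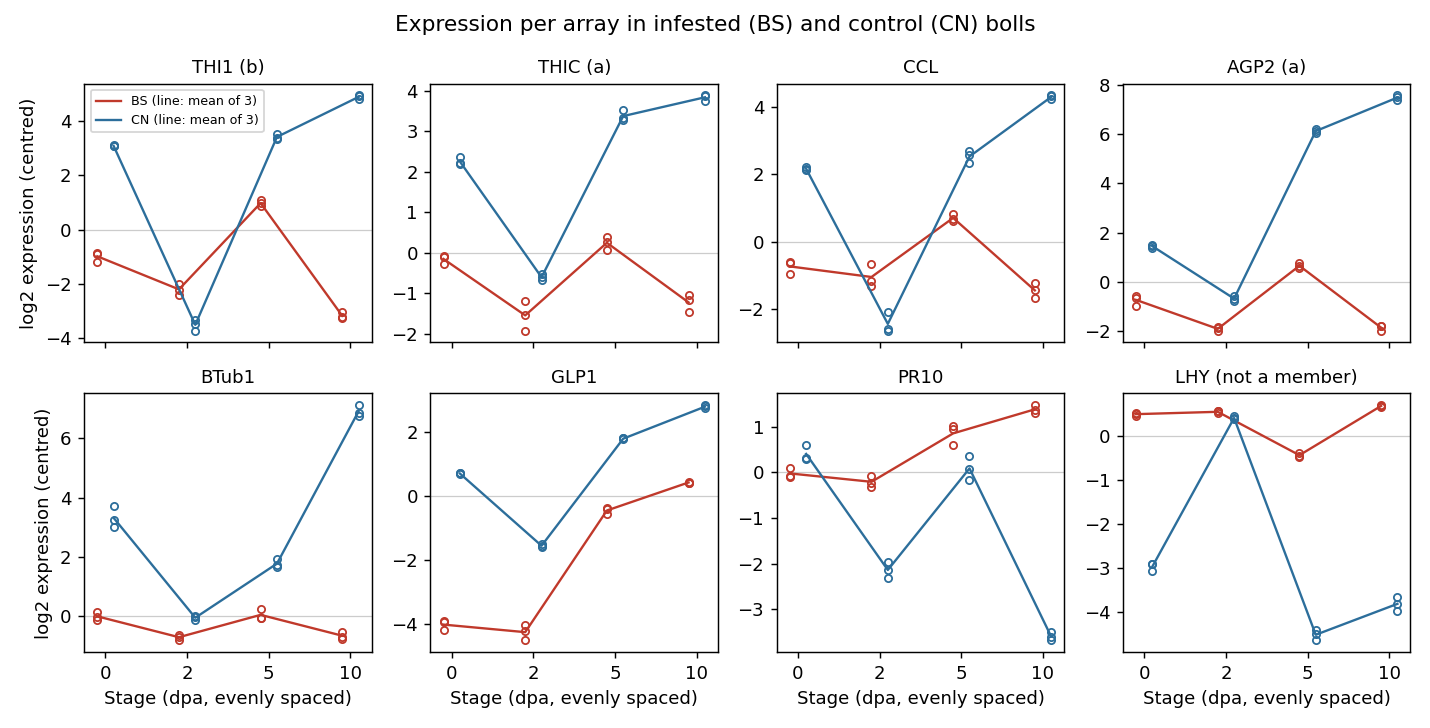
Log2 expression of 7 members and of LHY, which is no member, in each array (circles) of infested (BS, red) and control (CN, blue) bolls at 0, 2, 5 and 10 dpa, with lines through the means of 3 arrays. CN lines fall to a low at 2 dpa in each member, and only PR10 ends low in CN at 10 dpa (-3.59); LHY shows the reverse, with CN means of -2.97, 0.41, -4.52 and -3.82.

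Members of wall and fibre growth had shallower dips. They were 2 probe sets of arabinogalactan protein 2 (AGP2, a glycoprotein of the cell surface), a germin-like fibre protein (GLP1), the xyloglucan endotransglucosylase XTH4, which cuts and rejoins wall xyloglucan, an EXORDIUM-like protein (EXL5), and 3 tubulin probe sets, tubulin being the subunit of microtubules. AGP2 a read 1.48, 1.49 and 1.39 in CN at 0 dpa, -0.57, -0.76 and -0.68 at 2 dpa, 6.20, 6.11 and 6.06 at 5 dpa, and 7.50, 7.57 and 7.38 at 10 dpa. BS arrays of AGP2 a stayed between -1.97 and 0.76 over the 4 stages. Its dip of 2.12 was thus followed in CN by values 6.79 above those of 2 dpa at 5 dpa and 8.15 above them at 10 dpa.

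The beta-tubulin BTub1 read 3.71, 3.01 and 3.25 in CN at 0 dpa, 0.02, -0.13 and -0.02 at 2 dpa, 1.74, 1.66 and 1.94 at 5 dpa, and 6.87, 7.12 and 6.76 at 10 dpa. In BS bolls its 12 arrays covered 1.05 log2 units in all, against 7.25 units over the 12 CN arrays. The other 2 tubulin probe sets had dips of 1.77 (beta-tubulin 2) and 1.70 (TUB6). All 3 end in _x_at, the mark of probes that may bind related transcripts, and the tables given for this work match them to a beta-tubulin in one place and to the alpha-tubulin TUA5 in another, so the copies cannot be told apart. Of 54 probe sets described as cytoskeletal, these 3 were the members.

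GLP1 was the only member with a fibre name. It read -3.93, -3.96 and -4.21 in BS and 0.70, 0.70 and 0.68 in CN at 0 dpa, -4.23, -4.53 and -4.05 in BS and -1.51, -1.58 and -1.61 in CN at 2 dpa, -0.57, -0.40 and -0.42 in BS and 1.79, 1.79 and 1.77 in CN at 5 dpa, and 0.40, 0.41 and 0.43 in BS and 2.73, 2.83 and 2.79 in CN at 10 dpa. BS arrays lay below CN arrays of the same stage throughout, and the range over the 12 BS arrays (4.95) was the widest of any described member.

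The remaining described members were of mixed roles. HSFC1, a heat stress transcription factor, dipped by 2.13, and PR10, a pathogenesis-related protein of class 10, by 2.22. A putative RNA-binding splicing factor (1.83), emb2746 (1.70), an RNA-processing metallo-beta-lactamase, and a ribosomal constituent (1.62) act on RNA or in translation. A cytochrome P450 (1.73) was matched to CYP87A2 in one table and to the brassinosteroid enzyme CPD in another. The last were a putative NADP-dependent oxidoreductase (1.67) and LHCB4.3 (1.66), a chlorophyll-binding antenna protein of photosystem II. In all, 22 of the 36 members had a description that names a gene or a function, CCL among them although its function is unknown. The other 14 had none or a match to an unknown protein. Of these 14, the 6 mentioned below are called unannotated A to F.

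By 22 word lists over the described probe sets, 10 members fell into a list. They were 1 of 29 photosynthesis probe sets, 3 of 54 of the cytoskeleton, 1 of 49 expansins and xyloglucan enzymes, 2 of 18 arabinogalactan and fasciclin-like proteins, 2 of 170 redox enzymes and 1 of 434 transcription factors, and none of 66 for histones and DNA replication, 174 for lipids or 110 transporters. As wholes these lists had no dip of the members' size: the median of CN 0 dpa minus CN 2 dpa was 0.14 for the cytoskeleton, 0.16 for arabinogalactan proteins and -0.67 for photosynthesis. Marker lists of the tissues in a boll had no dip of that size either. Medians of the 72 fibre probe sets in CN were 0.41, 0.15, 0.78 and 0.99 at 0, 2, 5 and 10 dpa, those of the 20 green boll wall probe sets -0.31, 0.50, 1.11 and 1.19, and those of the 57 division probe sets 0.43, 0.62, 1.00 and 0.19. Those of the 10 vascular and secondary wall probe sets were 0.44, -0.39, -0.07 and 2.18, so these and the fibre probe sets were lowest at 2 dpa. The pollen and anther list and the seed list were lowest at 0 dpa. Probe sets whose name ends in _s_at or _x_at, which can read several transcripts, made up 50% and 13.9% of the members, against 38.7% and 6.49% of all probe sets.

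Near the threshold, the 4 shallowest members had a smaller difference of 1.667 (the NADP-dependent oxidoreductase), 1.655 (LHCB4.3), 1.641 (unannotated F) and 1.624 (the ribosomal constituent). The 4 nearest outside had 1.583 (a moderate match to a rice protein), 1.580 (another XTH4 match), 1.577 (rhodanese-like) and 1.530 (matched to the same Arabidopsis protein as EXL5).

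Whether the same genes also dipped in infested bolls was asked on arrays that the choice did not use. Between 0 and 2 dpa in BS bolls, 5 of the 36 members were lowered and 1 was raised (limma over all probe sets, adjusted p at most 0.01 and fold change at least 3, as in all comparisons below), where 1.94% of all probe sets were lowered and 0.463% raised. The share of members lowered was 13.9%. After quantile normalization, 5 members were lowered and 4 raised, and over all probe sets 324 were lowered and 260 raised, against 466 and 111 as deposited. Below 0 regardless of size were 31 of 36 members, against 44% of all probe sets, and the median was -0.82, against 0.05. Marker lists of other tissues and processes moved too. In the same comparison 27 of 57 division markers (median -1.52), 30 of 66 probe sets of DNA replication and the cell cycle (-1.41) and 14 of 72 fibre markers (-0.66) were lowered, and none of the 20 green boll wall markers (-0.96). These lists were drawn from descriptions that cover changed transcripts, and their part in the members' values was not tested here or in the comparisons below. The members that fell were THI1 c, XTH4, the cytochrome P450 and unannotated A and B, the last pair named after their values were seen.

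XTH4 read -2.50, -2.33 and -2.59 in BS at 2 dpa, against -0.47, -0.51 and -0.55 in BS at 0 dpa, a difference of -1.96 ± 0.08 (SE, n = 3 each, limma adjusted p = 7.9e-14), which was under 3-fold after quantile normalization (-1.35). The cytochrome P450 read -2.78, -1.79 and -2.02 at 2 dpa, against 0.26, 0.45 and 0.08 at 0 dpa, a difference of -2.46 ± 0.18 (limma adjusted p = 3.6e-10). THI1 c fell by 3.03 ± 0.12 (limma adjusted p = 6.3e-14), and its difference was -2.16 after quantile normalization. In each of these genes the groups did not overlap. The member that rose was unannotated C, with -0.55, -0.36 and -0.52 in BS at 2 dpa, against -2.30, -2.32 and -2.67 in BS at 0 dpa (1.95 ± 0.09, limma adjusted p = 5.6e-13, and 4.57 after quantile normalization). CCL differed by -0.31 ± 0.16 (limma adjusted p = 0.10) and its groups overlapped.

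Between 2 and 5 dpa in BS bolls, 19 of the 36 members (52.8%) were raised, where 2.62% of all probe sets were raised, and no member was lowered, where 0.53% of all were. The median was 1.74 over the members and -0.06 over all probe sets, and 33 members were above 0. Between these stages the BS sample changed to the attacked part in place of the whole boll, and this cannot be told apart from the stage. Raised in the same comparison were 17 of 20 green boll wall markers (median 1.97), 22 of 29 photosynthesis probe sets (1.85), 26 of 57 division markers (1.53) and 15 of 72 fibre markers (0.42), the first 2 of these at a higher share than the members. Over all probe sets 628 were raised and 127 lowered, and 506 and 293 after quantile normalization. The largest rises among described members were those of THI1 c (4.18 ± 0.12, 18.1-fold, limma adjusted p = 2.5e-16), GLP1 (3.80 ± 0.09, 13.9-fold, 7.5e-18), XTH4 (3.62 ± 0.08, 12.3-fold, 5.3e-18) and the cytochrome P450 (3.40 ± 0.18, 10.6-fold, 1.9e-12). XTH4 read 1.07, 1.07 and 1.29 in BS at 5 dpa, against the values near -2.5 at 2 dpa given above. AGP2 a rose by 2.56 ± 0.09 and CCL by 1.75 ± 0.16. BTub1 (0.75 ± 0.14) and the second THIC probe set (1.18 ± 0.09) differed by less than 3-fold.

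Both a fall between 0 and 2 dpa and a rise between 2 and 5 dpa were called in BS bolls for 5 members, where 1.38% of all probe sets had both. A rise alone was called for 14 members and neither for 17. Without a threshold, 31 of the 36 had their lowest BS mean of 0, 2 and 5 dpa at 2 dpa, against 26.8% of all probe sets. The ranges over 12 arrays were narrower in BS (median 2.40) than in CN (median 4.25), and 31 members had the narrower range in BS. The choice required differences of at least 1.585 within CN and none within BS. Wider CN ranges were thus favoured by it, and nothing is read from them. The difference between the BS and CN dips was not tested, since the CN values chose the members. The widest BS ranges of described members were those of GLP1 (4.95), THI1 c (4.45) and THI1 b (4.37), and the narrowest those of the NADP-dependent oxidoreductase (0.91), BTub1 (1.05) and beta-tubulin 2 (1.45).

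**Figure D3:**
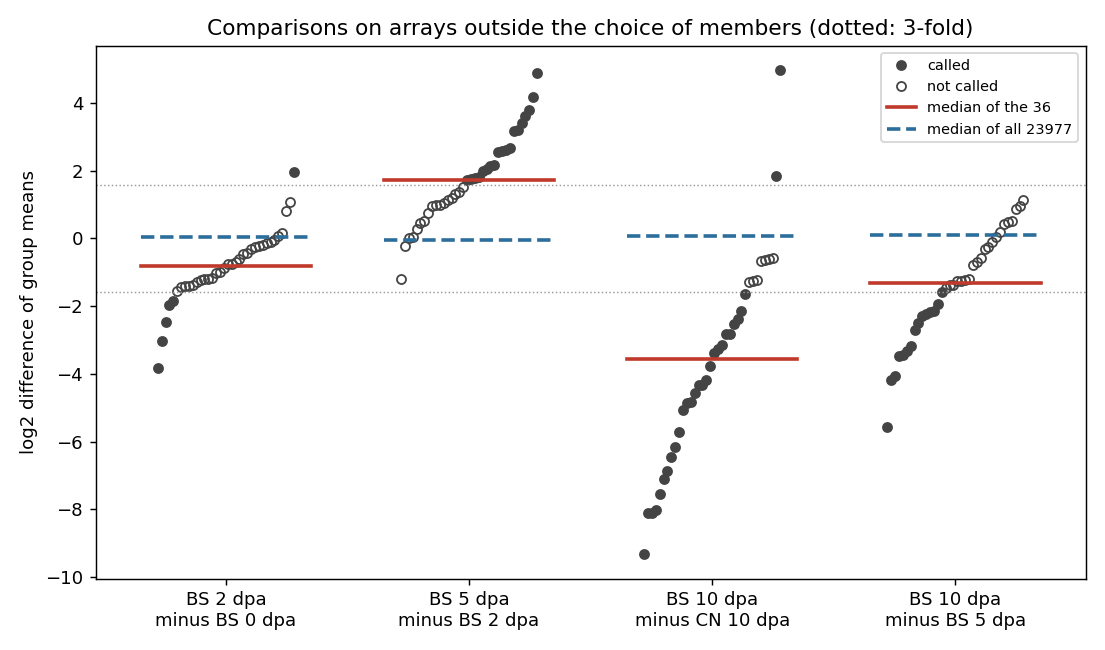
Log2 difference of group means for the 36 members (circles, sorted within each comparison, filled where called) in the 4 comparisons between groups that did not choose the members, with the median of the members (red) and of all 23977 probe sets (blue, dashed) and lines at 3-fold (dotted). The members' medians are -0.82, 1.74, -3.57 and -1.32, and those of all probe sets lie between -0.06 and 0.10.

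At 10 dpa, 27 of the 36 members (75%) were lower in BS than in CN bolls, where 11.5% of all probe sets were lowered. No array of this stage was used by the choice, but the comparison cannot be taken as independent of it. The choice took probe sets by high CN values at other stages. In CN at 10 dpa, 32 members also lay at least 3-fold above CN at 2 dpa (median difference 3.87). How much of the BS minus CN difference follows from this was not tested. There were 2 members higher (5.56%), where 8.97% of all probe sets were raised. The median difference was -3.57 over the members and 0.08 over all probe sets. The 308 probe sets with the opposite shape, chosen by low CN values at the stages around 2 dpa, went the other way. Of these, 2 were lowered and 289 raised, with a median of 4.47. Tissue markers differed at this stage as well. Lowered in BS were 17 of 20 green boll wall markers (median -2.06), 51 of 72 fibre markers (-3.21) and 40 of 57 division markers (-2.32), while 4 of 6 seed markers were raised (4.42). Of 10 vascular and secondary wall markers, 7 were lowered and 2 raised (-3.53). The medians of the fibre markers were -1.87 in BS and 0.99 in CN, and those of the seed markers 3.43 in BS and -0.29 in CN. The comparison stands beside a scaling difference: the 27 hybridization controls were 0.67 higher in BS than in CN at 10 dpa (0.39 and -0.28), and with arrays centred on them the median over all probe sets was -0.59 and over the members -4.23. After quantile normalization the median over the members was -2.49, and 25 were lowered where 5.66% of all probe sets were. All 29 called differences were smaller, 28 of them by over 1.5 times in fold. RMA had already equalized the arrays before the centring, and this further step gave all arrays the same spread. Arrays of 10 dpa had the widest (SD 1.05 to 1.07 in BS and 0.80 to 0.81 in CN). How much of the smaller differences there follows from this step was not tested.

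The largest falls were in AGP2 a, with -1.77, -1.97 and -1.80 in BS and 7.50, 7.57 and 7.38 in CN (-9.33 ± 0.09, SE, n = 3 each, 644-fold, limma adjusted p = 6.3e-25), and in AGP2 b (-8.12 ± 0.17, 278-fold). After quantile normalization these were -6.27 (77.2-fold) and -5.08 (33.9-fold). All 18 probe sets described as arabinogalactan or fasciclin-like proteins were lowered at this stage. THI1 b fell by 8.10 ± 0.11 (275-fold, limma adjusted p = 4.7e-23), THI1 c differed by -6.88 ± 0.12 (118-fold) and THIC a by -5.06 ± 0.14 (33.3-fold), and all 6 THI1 and THIC probe sets were lowered. After quantile normalization THI1 b differed by -5.23 (37.6-fold), THI1 c by -4.46 (22-fold) and THIC a by -3.27 (9.62-fold). BTub1 read -0.68, -0.51 and -0.76 in BS and 6.87, 7.12 and 6.76 in CN (-7.56 ± 0.14, 189-fold, limma adjusted p = 3.8e-21, and -5.04 or 33-fold after quantile normalization). Of the 54 cytoskeletal probe sets, 48 were lowered and 1 was raised, so lowered values at this stage were found well beyond the members.

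CCL (-5.73 ± 0.16, 53-fold, limma adjusted p = 2.7e-18), XTH4 (-4.57 ± 0.08, 23.7-fold) and LHCB4.3 (-4.19 ± 0.06, 18.3-fold) fell too, with differences of -3.76, -2.94 and -2.67 after quantile normalization. EXL5, whose family takes part in cell expansion in Arabidopsis, read -1.97, -1.99 and -2.42 in BS and 2.71, 2.65 and 2.76 in CN, and fell by 4.83 ± 0.15 (limma adjusted p = 2.2e-17). GLP1 fell by 2.37 ± 0.09. HSFC1 differed by -1.28 ± 0.07 and the ribosomal constituent by -0.60 ± 0.09, both under 3-fold, although neither had overlapping groups.

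PR10 went the other way. It read 1.36, 1.31 and 1.47 in BS and -3.68, -3.50 and -3.60 in CN at 10 dpa, a difference of 4.97 ± 0.13 (31.4-fold, limma adjusted p = 8.6e-19, and 3.50 or 11.3-fold after quantile normalization). In CN it had been 0.60, 0.30 and 0.31 at 0 dpa, -1.97, -2.31 and -2.13 at 2 dpa and -0.16, 0.07 and 0.35 at 5 dpa, so its lowest CN values were those of 10 dpa. PR10 was the 1 member with a CN mean at 10 dpa below that at 2 dpa. The other member that rose was unannotated D, a weak match to a rice protein, with 0.47, 0.56 and 0.57 in BS and -1.29, -1.12 and -1.49 in CN (1.84 ± 0.18, limma adjusted p = 5.7e-09). Its rise was under 3-fold after quantile normalization (1.50) and on the hybridization control scale (1.17).

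Between 5 and 10 dpa in BS bolls, with the larva removed, 15 members (41.7%) were lowered, where 4.95% of all probe sets were, and none was raised, where 1.18% were. The median was -1.32 over the members and 0.10 over all probe sets. Lists lowered at a higher share than the members included arabinogalactan and fasciclin-like proteins (13 of 18, median -2.70), with both AGP2 probe sets. Also among them were the brassinosteroid list (23 of 39, -1.77) and the expansins and xyloglucan enzymes (24 of 49, -1.43). The fibre markers (39 of 72, -1.83), the division markers (30 of 57, -1.62) and the DNA replication list (34 of 66, -1.61) were among them too. Of the seed markers, 4 of 6 were raised (2.24). Over all probe sets 283 were raised and 1187 lowered, and 189 and 379 after quantile normalization, when all 15 of these members had smaller differences, 13 by over 1.5 times in fold. Largest among described members were the falls of THI1 b (-4.17 ± 0.11, 18.1-fold, limma adjusted p = 9.6e-18), with 2 further THI1 probe sets, of the cytochrome P450 (-3.44 ± 0.18, 7.1e-13), of TUB6 (-3.19 ± 0.09, 1.2e-17) and of AGP2 b (-2.69 ± 0.17, 1.7e-11). TUB6 read -3.15, -2.75 and -2.85 in BS at 10 dpa, against 0.27, 0.20 and 0.37 in BS at 5 dpa. EXL5 passed the fold threshold narrowly (-1.59), and did not pass it without BS replicate 3 at 10 dpa (-1.45) or without BS replicate 2 (-1.58) or 3 (-1.52) at 5 dpa. After quantile normalization it was -0.35 (limma adjusted p = 0.089), and CCL (-1.50) and LHCB4.3 (-1.42) were under 3-fold. GLP1 (0.88 ± 0.09), PR10 (0.52 ± 0.13) and HSFC1 (0.49 ± 0.07) differed the other way by less than 3-fold. These comparisons share the BS arrays at 2, 5 and 10 dpa with each other, so their counts are not independent.

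In CN bolls, by contrast, 28 of the 36 members had a higher mean at 10 dpa than at 5 dpa. At 10 dpa 32 members lay at least 3-fold above CN at 2 dpa (2.75% of all probe sets), the median being 3.87 over the members and -0.01 over all probe sets. Both differences rest on CN arrays of the choice, which had to be low at 2 dpa, and were not tested or read further. BTub1 (5.14) and the second CCL match (3.36) had the largest differences between CN at 10 and 5 dpa, and PR10 (-3.68) the lowest.

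Infested minus control values at the stages of the choice are given as a description only. The BS mean lay at least 3-fold below the CN mean for 24 members at 0 dpa (1.28% of all probe sets), for 5 at 2 dpa (4.46%) and for 19 at 5 dpa (2.46%), and at least 3-fold above it for 0, 4 and 0 members (4.19%, 3.34% and 6.39% of all). Medians over the members were -2.05 at 0 dpa, -0.16 at 2 dpa and -1.69 at 5 dpa. The choice asks for high CN values at 0 and 5 dpa and low ones at 2 dpa, so nothing is read from these shares. At 2 dpa the members lower in BS than in CN by 3-fold were unannotated A (-3.41), THI1 c (-2.99), EXL5 (-2.81), GLP1 (-2.70) and the RNA-binding protein (-1.96). Higher were unannotated C (2.64), unannotated D (2.28), PR10 (1.93) and unannotated E (1.78).

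**Figure D4:**
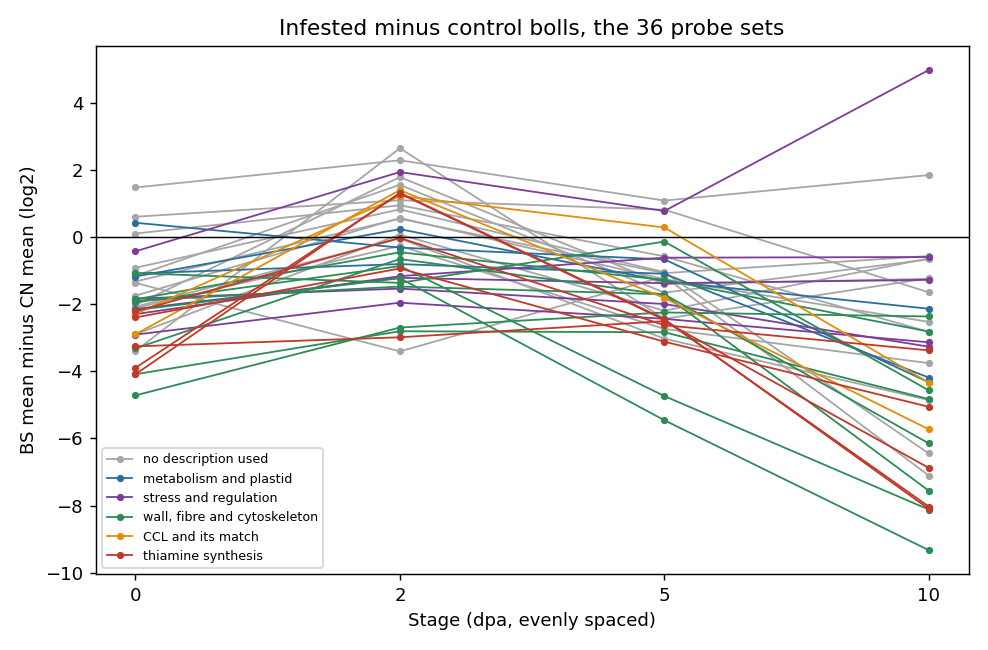
BS mean minus CN mean (log2) of each of the 36 members (lines, coloured by role) at 0, 2, 5 and 10 dpa. Most lines lie below 0 at 0 dpa, come close to or above 0 at 2 dpa, lie below it again at 5 dpa and reach down to -9.33 at 10 dpa, where PR10 lies at 4.97; the first 3 stages include arrays that chose the members.

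In CN bolls, LHY transcripts were highest at 2 dpa, the stage of the members' dip. The first LHY probe set, for a morning factor of the Arabidopsis clock, is no member and was looked up after the members' values were seen. With differences of -3.37 (CN 0 dpa minus CN 2 dpa) and -4.93 (CN 5 dpa minus CN 2 dpa), this LHY probe set is among the 308 of the opposite shape. It read 0.53, 0.51 and 0.45 in BS and -2.91, -2.92 and -3.07 in CN at 0 dpa, 0.56, 0.57 and 0.52 in BS and 0.38, 0.40 and 0.45 in CN at 2 dpa, -0.46, -0.47 and -0.38 in BS and -4.50, -4.65 and -4.41 in CN at 5 dpa, and 0.69, 0.66 and 0.70 in BS and -3.81, -3.98 and -3.66 in CN at 10 dpa. CN bolls at 2 dpa were thus the only CN group with LHY near the level of the BS groups. The second LHY probe set had CN means of -0.79, 0.06, -2.02 and -1.84 over the 4 stages and BS means between -0.06 and 0.23.

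At 10 dpa both LHY probe sets were higher in BS than in CN, by 4.50 ± 0.07 (limma adjusted p = 5.1e-22) and 2.08 ± 0.05 (limma adjusted p = 7.7e-19). Among the 7 probe sets taken by name into a list of clock and cycling DOF factors, 5 were raised at this stage and 1, the member CCL, was lowered. The pseudo-response regulator APRR2, in the list by its name alone and not shown here to be part of the clock, had CN means of -1.91, 0.55, -0.86 and -2.05. The cycling DOF factor CDF3 had CN means of -1.41, 0.00, -1.64 and -0.59. In the remaining probe sets of the list, CN 0 dpa minus CN 2 dpa was -0.27 and -0.42, and CN 5 dpa minus CN 2 dpa was -1.08 and -0.66. The part of the collection hour in the members' values was not tested.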

How the data were processed

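The authors deposited log2 expression values for 24132 rows, computed with RMA in GeneSpring GX, which corrects background, equalizes the arrays by quantiles and summarizes probes by median polish. The row medians over the 24 arrays all lay within 1e-06 of 0. Probe sets had thus been centred, a step inferred from the values, and levels, detection and signal over background are unknown. Left out were 103 AFFX and 52 RPTR control rows. Groups came from the sample titles. All 8 group means were fitted to the 24 arrays with limma 3.58.1 in R 4.3.3 (16 residual and 3.53 prior degrees of freedom), and 4 contrasts were tested with Benjamini-Hochberg adjustment over 23977 probe sets. Calls needed a 3-fold change with an adjusted p not above 0.01, the limits of the study's methods, where an unpaired t-test was used. The scripts were tested on simulated data. With 3 arrays a group, their number limits the precision.

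Descriptions of probe sets were taken from tables of the study, which list changed transcripts and cover 2890 probe sets (12.1%), so lists are incomplete. Of the 36 members, 6 had a locus in the array annotation, and all 6 were in the RefSeq gene table. The text uses gene names or letters for probe sets, whose array identifiers are kept with the values in the tables. Named were the described members with the 12 deepest dips, the 4 on each side of the threshold, the 4 largest called changes of each comparison, 3 of each word list, those with primers, and the widest and narrowest BS ranges. The members and lists were chosen with earlier results of these data known. Alternatives were a 2-fold threshold, quantile normalization, centring on hybridization controls, the 15 arrays outside the choice, the methods' t-test, a replicate block, each array left out, and, after the data were seen, 1 probe set for each UniGene cluster.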

Additional observations from a re-analysis of the deposited data

Results flagged for a closer look

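Hybridization and poly-A control rows, outside the comparisons, were higher in BS than in CN at every stage. At 10 dpa the 27 hybridization controls averaged 0.39 in BS and -0.28 in CN arrays, a difference of 0.67 log2 units. The 42 poly-A controls averaged 0.48 and -0.46 at 10 dpa, a difference of 0.94, and the 52 reporter rows were 0.22 higher in BS (0.11 and -0.11). At 0, 2 and 5 dpa the poly-A controls averaged 0.53, 1.16 and 0.68 in BS, against -0.59, -0.67 and -1.03 in CN. The hybridization controls averaged 0.28, 0.58 and 0.22 in BS, against -0.30, -0.27 and -0.50 in CN, at 0, 2 and 5 dpa. Their part in the members' values beyond the alternative scaling was not tested.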

How the results depend on the processing

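The number of members was 20 with a difference of at least 2 log2 units, 119 with at least 1, 137 after quantile normalization of the 24 columns and 48 on the hybridization control scale, and each of the last 3 sets held all 36. The SD over all probe sets was 0.35 to 0.36 in the CN arrays at 2 dpa, against 0.62 in CN at 0 dpa and 0.70 to 0.71 in CN at 5 dpa, and quantile normalization makes these equal. Leaving out 1 array gave 36 to 39 members.

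For BS 2 dpa minus BS 0 dpa, members raised were 2 at 2-fold and 4 after quantile normalization in place of 1, and members lowered were 16 at 2-fold and 10 on the hybridization control scale in place of 5. For BS 5 dpa minus BS 2 dpa, 1 member was lowered at 2-fold and 1 after quantile normalization, in place of 0. At 10 dpa, members higher in BS than in CN were 1 after quantile normalization and 1 on the hybridization control scale, in place of 2. For BS 10 dpa minus BS 5 dpa, 1 member was raised at 2-fold and 1 after quantile normalization, in place of 0. The cause was not tested. Without 1 array, the counts lowered were 5 to 6, 0, 27 and 14 to 15 in the 4 comparisons and those raised 1, 19 to 20, 2 and 0. The counts under the other alternatives stayed within 1.5 times. Of the 69 single calls, 61 were kept after quantile normalization, 68 on the hybridization control scale and all 69 with the methods' t-test and with the 15 arrays, and none changed direction. The 8 lost after quantile normalization were EXL5 in both late BS comparisons, XTH4 between BS 0 and 2 dpa, CCL and LHCB4.3 between BS 5 and 10 dpa, and unannotated B, unannotated D and the NADP-dependent oxidoreductase at 10 dpa.

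For same-numbered replicates of compared groups, the deviations from the group means correlated between -0.05 and 0.03, so the numbers do not pair the arrays. With a replicate block the counts were as before (5 lowered and 1 raised, 19 raised, 27 lowered and 2 raised, and 15 lowered). Centring on hybridization controls moved the median over all probe sets to -0.25, 0.29, -0.59 and -0.07 in the 4 comparisons, against 0.05, -0.06, 0.08 and 0.10.

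Limits are the pools of bolls with 3 arrays a group, the plots, the change of collected tissue between 2 and 5 dpa, and the unknown hour of collection, none of which can be separated from the groups. Centred values give no depth and no detection.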
